A study of Mus musculus with 17 samples.

Results

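Leydig cells are the interstitial cells of the testis that make androgens, and the 10 genes described here encode the main steps of that pathway together with the hormones and receptor that mark the cell type. The genes are *Star*, *Cyp11a1*, *Fdx1*, *Hsd3b1*, *Hsd3b6*, *Cyp17a1*, *Hsd17b3*, *Akr1cl*, *Insl3* and *Lhcgr*. They were chosen by name, and all 10 were found among the 23282 genes listed in the deposited table. None of the sorted populations was meant to hold Leydig cells: the libraries were made from germ cells of 3 stages, namely spermatogonia (SPG), spermatocytes in pre-leptotene (PreL) and spermatocytes in leptotene or zygotene (LZ).

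As background, luteinizing hormone from the pituitary binds its receptor LHCGR on Leydig cells and raises cyclic AMP, which increases STAR. STAR carries cholesterol to the inner mitochondrial membrane, where CYP11A1 cuts its side chain to give pregnenolone with electrons delivered by ferredoxin, the product of *Fdx1*. In the endoplasmic reticulum, 3β-hydroxysteroid dehydrogenases (*Hsd3b1*, *Hsd3b6*) and CYP17A1 convert pregnenolone to androstenedione, and HSD17B3 reduces androstenedione to testosterone. INSL3 is a peptide hormone of Leydig cells that acts in the descent of the testis.

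The cells came from C57BL/6 mice by the labels (C57BL/6J in the study's methods), either wild type (WT) or *Nat10*-SKO (hereafter SKO). SKO mice carried 1 floxed and 1 deleted *Nat10* allele (*Nat10* fl/-) with the *Stra8*-GFPCre knock-in, so that Cre, made in germ cells before meiosis, removed exons 4 and 5 of this gene for an RNA acetyltransferase. Cre is not active in Leydig cells by this design, although the deleted allele was carried by every cell of the animal. Testicular cells were stained with a Hoechst DNA dye and propidium iodide and sorted by FACS. By the study's immunofluorescence counts, most cells sorted as PreL and LZ were of the intended stage. Both sorts also held cells of other stages and cells classed as others, more of these in LZ than in PreL. Those counts name no genotype and have no row for sorted SPG. The ages of the mice used for sequencing, any Cre allele in the WT mice, and the number of animals behind each library are not given in the sources used here. The study calls the libraries of a group biological replicates, and the p-values below measure the spread between these libraries.

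There were 17 libraries: WT replicates 1, 2 and 3 and SKO replicates 1, 3 and 4 of SPG, WT replicates 1, 2 and 4 and SKO replicates 1, 2 and 3 of PreL, and WT replicates 2 and 3 and SKO replicates 1, 2 and 3 of LZ. The libraries held 5812380 to 13820953 reads each, the SKO LZ libraries being the shallowest (5812380 to 7609420), and 14493 to 17818 genes had a read. *Nat10* had 248 to 485 reads per WT library and 45 to 269 per SKO library, with the WT libraries above the SKO libraries in each stage; these counts cover the whole gene and not the deleted exons alone. The germ cell genes *Ddx4*, *Dazl* and *Mael* together took 2764 to 4122 RPM, that is reads scaled by the library's total, in every library. Where a library had 0 reads of a gene, 3 reads (0.217 to 0.516 RPM) was taken as the level that a count of 0 allows, which covers counting error only.

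*Hsd3b1* and *Hsd3b6* are neighbours on chromosome 3 with similar sequences, and several results below rest on telling them apart. Their coding sequences of 1122 bases in the GENCODE annotation of GRCm38 shared 90.02% of bases with no gap, and the longest run of shared bases was 72. The first 90 coding bases of each, on the transcribed strand, are shown with the 12 bases that differ in capitals.
Hsd3b1: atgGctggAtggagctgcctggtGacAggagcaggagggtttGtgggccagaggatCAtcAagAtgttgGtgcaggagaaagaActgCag
Hsd3b6: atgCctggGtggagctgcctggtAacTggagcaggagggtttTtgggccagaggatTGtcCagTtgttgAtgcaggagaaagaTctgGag
No stretch of 100 bases of the *Hsd3b1* transcript was found in a transcript of another gene, and 3.29% of the 100-base windows of *Hsd3b6* were found in *Hsd3b2* or *Hsd3b3*.

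The nuclear receptor NR5A1 (SF-1) is a known activator of steroidogenic genes and binds a half-site of the form AAGGTCA. RefSeq promoters of GRCm38.p6, each 250 bases before to 50 bases after a gene's start, were found for 8 of the 10 genes (9 promoters). None was found for *Star* or *Cyp17a1*. AAGGTCA, searched on both strands, was in 0 of these 9 promoters and in 4.72% of all 32851 promoters. The shorter half-site AGGTCA, which AAGGTCA contains, was in 2 of the 9 and in 16.3% of all promoters. These 2, which alone of the 9 held a match, are shown with the AGGTCA match in capitals. It lies 28 bases before the start that this promoter of *Cyp11a1* belongs to and 122 bases before the start of *Lhcgr*, on the strand of the gene in both. The *Cyp11a1* promoter shown is at chr9:58014702-58015001 on the plus strand, within the annotated gene, and a further *Cyp11a1* promoter, at chr9:57997774-57998073, held no match. That of *Lhcgr* is at chr17:88791965-88792264 on the minus strand.
Cyp11a1: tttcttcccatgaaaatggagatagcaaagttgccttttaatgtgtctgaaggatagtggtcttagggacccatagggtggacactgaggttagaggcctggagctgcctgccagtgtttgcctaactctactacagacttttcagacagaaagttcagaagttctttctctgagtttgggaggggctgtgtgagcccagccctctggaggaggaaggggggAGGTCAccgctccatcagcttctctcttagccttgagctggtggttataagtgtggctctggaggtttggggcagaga
Lhcgr: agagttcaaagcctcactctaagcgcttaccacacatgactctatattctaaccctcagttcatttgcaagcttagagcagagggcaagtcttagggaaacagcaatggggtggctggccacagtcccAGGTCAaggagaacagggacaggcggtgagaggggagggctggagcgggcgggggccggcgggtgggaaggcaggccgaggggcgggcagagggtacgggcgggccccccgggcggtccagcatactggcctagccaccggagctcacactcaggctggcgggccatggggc

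Across the 3 stages, 9 of the 10 genes had higher mean levels in SKO than in WT libraries, and *Fdx1* stood apart. Summed over the 9 genes other than *Fdx1*, reads went from 5.78 to 22.01 RPM in WT SPG libraries to 115 to 346 RPM in SKO SPG libraries. The same sum was 8.31 to 24.8 RPM in WT PreL and 57.1 to 694 RPM in SKO PreL, and 28.5 to 93.3 RPM in WT LZ and 122 to 353 RPM in SKO LZ. The ranges of WT and SKO libraries did not overlap in any stage. In SKO PreL, replicates 1 and 2 held 419 and 694 RPM and replicate 3 only 57.1 RPM. WT libraries had up to 6 of the 9 genes at 0 reads (WT PreL replicate 1), and every SKO library had reads of all 9. In bulk libraries, more cells of a type and more RNA per cell cannot be told apart.

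**Figure D1:**
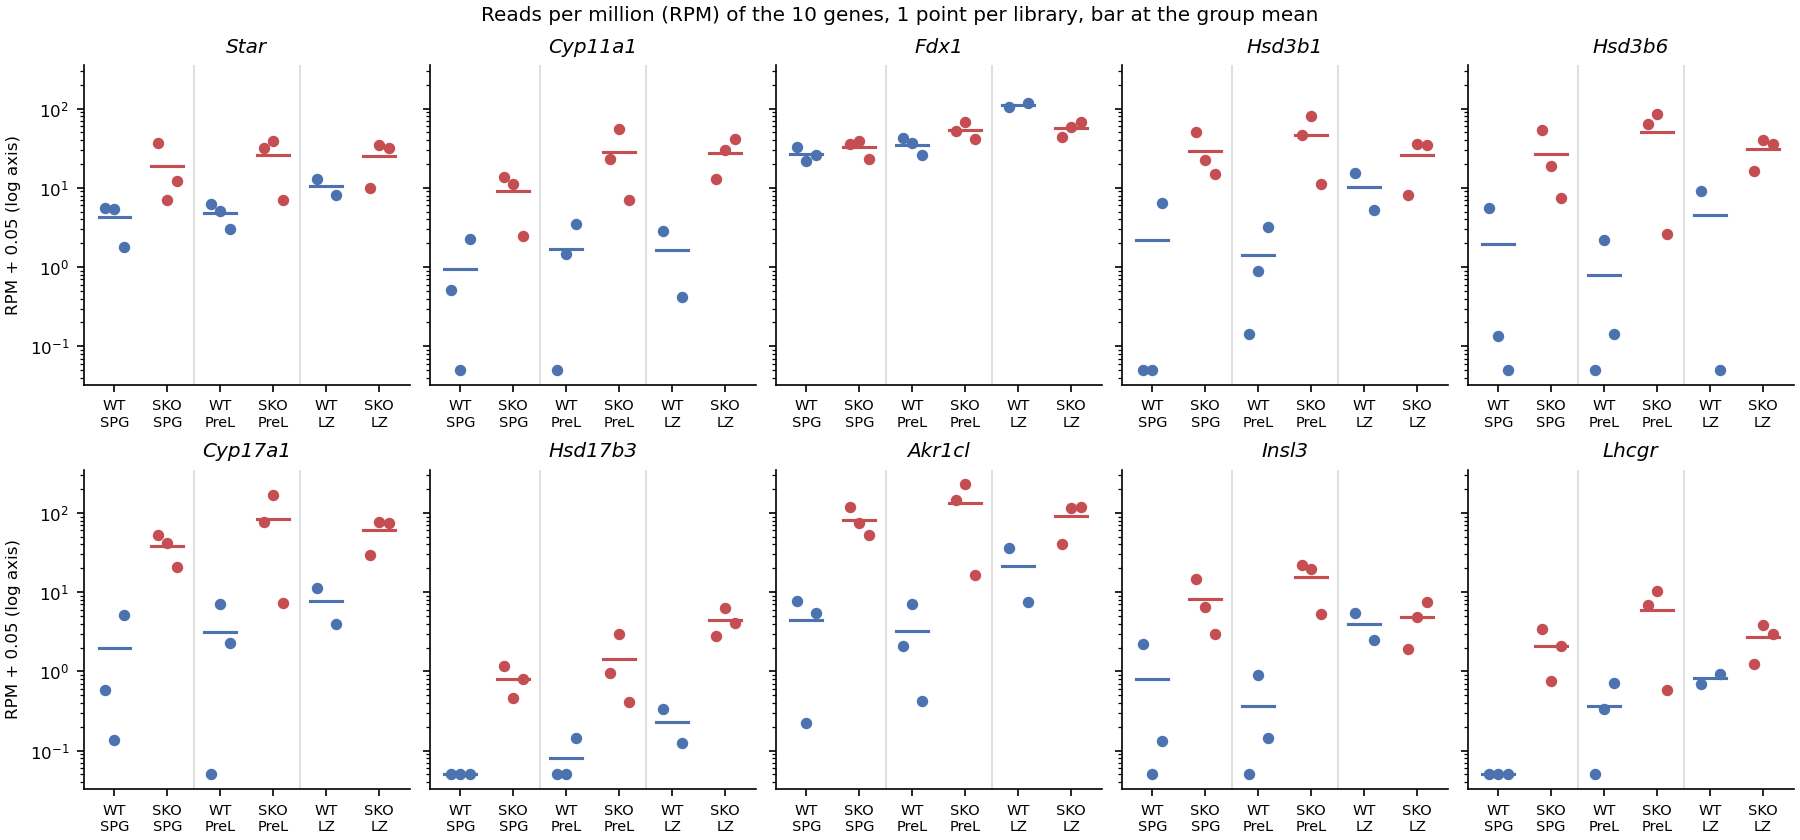
Level of each gene in RPM (plus 0.05, log axis), for each of the 10 genes in the 6 groups, with 1 point per library and a bar at the group mean; points at the bottom are libraries with 0 reads. SKO points (red) sit above WT points (blue) for most genes, whereas *Fdx1* reaches its highest values, 104 and 117 RPM, in the WT LZ libraries.

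*Star* (chromosome 8, 25806555 to 25815982, plus strand), the cholesterol carrier, was the only gene other than *Fdx1* and *Akr1cl* with reads in every library. Its SPG libraries held 72, 63 and 21 reads in WT and 396, 70 and 143 in SKO. In PreL it had 66, 53 and 32 reads in WT and 361, 442 and 78 in SKO. In LZ it had 177 and 110 reads in WT and 58, 265 and 219 in SKO. SKO replicate 3 of SPG, SKO replicate 3 of PreL and the shallow SKO replicate 1 of LZ were the lowest of their groups. The log2 fold change of SKO against WT was 1.74 (SE 0.56, adjusted p = 0.0622, limma, as for all adjusted p-values below unless another tool is named) in SPG, which did not pass the test, although DESeq2 called it (2.12, adjusted p = 0.0078). *Star* rose in PreL (2.01, SE 0.54, adjusted p = 0.0332) and in LZ (1.49, SE 0.48, adjusted p = 0.0329). Fold changes are on the log2(rescaled value + 10) scale, which understates the change of genes with few reads.

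*Cyp11a1* (chromosome 9, 58006411 to 58027023, plus strand) catalyses the first and rate-limiting enzymatic step. Its SPG libraries held 6, 0 and 27 reads in WT and 146, 111 and 29 in SKO, its PreL libraries 0, 15 and 37 in WT and 263, 618 and 78 in SKO, and its LZ libraries 39 and 5 in WT and 74, 226 and 285 in SKO. Every SKO library of a stage was above every WT library, by the narrowest margin in SPG, between 29 and 27 reads. *Cyp11a1* rose in SPG (log2 fold change 2.52, SE 0.68, adjusted p = 0.0290), in PreL (3.69, SE 0.82, adjusted p = 0.0161) and in LZ (4.65, SE 0.68, adjusted p = 0.0011). Its exons overlap the annotated lincRNA *Gm17322* on the same strand, which is not among the listed genes.

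*Fdx1* (chromosome 9, 51943306 to 51963556, minus strand), whose product also supplies electrons to mitochondrial enzymes in other cells, did not follow the others. It had 22.01 to 32.3 RPM in WT SPG and 23.1 to 38.7 RPM in SKO SPG, 26.0 to 42.9 RPM in WT PreL and 41.4 to 67.1 RPM in SKO PreL, and 104 and 117 RPM in WT LZ against 43.2 to 68.1 RPM in SKO LZ. WT and SKO overlapped in SPG and PreL on this scale, and the WT LZ libraries lay above all other libraries. In reads these LZ values were 1434 and 1601 in WT and 251, 450 and 472 in SKO. No stage passed the test for *Fdx1*: the log2 fold changes were 0.24 (SE 0.25, adjusted p = 0.606) in SPG, 0.53 (SE 0.20, adjusted p = 0.0956) in PreL and -0.60 (SE 0.24, adjusted p = 0.0673) in LZ. With the ERCC-calibrated values as deposited, the PreL value was 1.25 (adjusted p = 0.0031), where the median of all genes was 0.73, and the SPG value turned to -0.028.

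The paralogues of 3β-hydroxysteroid dehydrogenase were nearly absent from some WT libraries and not from others. *Hsd3b1* (chromosome 3, 98852194 to 98859794, minus strand) had 0, 0 and 77 reads in WT SPG and 548, 220 and 176 in SKO SPG. In PreL it had 1, 9 and 34 reads in WT and 523, 910 and 124 in SKO, and in LZ 210 and 71 in WT and 47, 271 and 242 in SKO. Only in LZ did WT and SKO reads overlap. *Hsd3b1* rose in SPG (log2 fold change 4.01, SE 0.75, adjusted p = 0.0047) and PreL (4.53, SE 0.77, adjusted p = 0.0048), and in LZ its log2 fold change was 1.64 (SE 0.63, adjusted p = 0.0619).

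*Hsd3b6* (chromosome 3, 98805504 to 98814443, minus strand) had 73, 1 and 0 reads in WT SPG and 576, 185 and 87 in SKO SPG. Its reads were 0, 23 and 1 in WT PreL, 723, 961 and 29 in SKO PreL, 125 and 0 in WT LZ and 94, 305 and 250 in SKO LZ. *Hsd3b6* rose in SPG (log2 fold change 3.66, SE 0.79, adjusted p = 0.0102), PreL (4.72, SE 1.13, adjusted p = 0.0214) and LZ (4.83, SE 1.30, adjusted p = 0.0170). In some WT libraries the paralogues did not go together, while WT LZ replicate 2 had 210 reads of *Hsd3b1* and 125 of *Hsd3b6*, and WT PreL replicate 2 had 9 and 23. WT SPG replicate 1 had 0 reads of *Hsd3b1* and 73 of *Hsd3b6*, WT SPG replicate 3 had 77 and 0, and WT LZ replicate 3 had 71 and 0. In every SKO library both genes had reads, with the lowest values 47 for *Hsd3b1* and 29 for *Hsd3b6*.

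*Cyp17a1* (chromosome 19, 46667165 to 46673172, minus strand), the hydroxylase and lyase that commits steroids to androgens, showed a wide gap between genotypes in SPG. WT SPG libraries held 7, 1 and 61 reads and SKO SPG libraries 567, 408 and 250. The PreL libraries held 0, 75 and 24 reads in WT and 858, 1912 and 81 in SKO, the last just above the highest WT library. The LZ libraries held 157 and 54 reads in WT and 169, 589 and 523 in SKO. *Cyp17a1* rose by a log2 fold change of 4.28 (SE 0.62, adjusted p = 0.00096) in SPG, 4.32 (SE 1.15, adjusted p = 0.0312) in PreL and 3.38 (SE 0.46, adjusted p = 0.00074) in LZ.

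*Hsd17b3* (chromosome 13, 64058266 to 64089230, minus strand), the enzyme of the last step to testosterone, had the fewest reads of the 10 genes. No WT SPG library had a read of it, and the SKO SPG libraries had 12, 4 and 9. The WT PreL libraries had 0, 0 and 1 reads and the SKO PreL libraries 10, 33 and 4. In LZ there were 4 and 1 reads in WT and 16, 48 and 28 in SKO. It was the only one of the 10 genes whose lowest SKO library lay above its highest WT library over all stages, on rescaled values and in RPM but not on the ERCC-calibrated values. In RPM the margin was narrow, 0.355 in SKO PreL replicate 3 against 0.289 in WT LZ replicate 2, each with 4 reads. Mean reads were too low for the test in SPG and PreL. Against the 3 reads per library that a count of 0 allows, the mean of the SKO SPG libraries was at least 3.06-fold higher and their lowest library at least 1.68-fold higher. In PreL, 47 reads in the SKO libraries against 1 in WT gave a ratio of 44.6 per read sequenced, with an exact 95% interval of 7.62 to 1797 for counting error. *Hsd17b3* rose in LZ (log2 fold change 3.90, SE 0.48, adjusted p = 0.00046).

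*Akr1cl* (chromosome 1, 65012689 to 65032759, minus strand), an aldo-keto reductase of mouse Leydig cells, took the most reads of the 9 genes in each SKO library, between 28.6% and 45.2% of their sum. WT SPG libraries held 101, 2 and 65 reads and SKO SPG libraries 1300, 727 and 620. WT PreL libraries held 22, 75 and 4 reads and SKO PreL libraries 1652, 2606 and 184, and in LZ the reads were 493 and 103 in WT and 236, 878 and 825 in SKO. *Akr1cl* rose in SPG (log2 fold change 4.41, SE 0.62, adjusted p = 0.00082), PreL (4.96, SE 0.95, adjusted p = 0.0086) and LZ (2.69, SE 0.58, adjusted p = 0.0067). Its exons overlap a processed pseudogene on the other strand, *Gm8550*, which is not listed.

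The hormone *Insl3* (chromosome 8, 71689214 to 71690575, plus strand) changed its pattern between stages. Its SPG libraries held 28, 0 and 1 reads in WT and 159, 64 and 35 in SKO, and its PreL libraries 0, 9 and 1 in WT and 243, 217 and 59 in SKO. In LZ it had 75 and 33 reads in WT and 11, 37 and 52 in SKO, so the genotypes overlapped in this stage only. *Insl3* rose in SPG (log2 fold change 2.59, SE 0.66, adjusted p = 0.0236) and PreL (4.12, SE 0.59, adjusted p = 0.0022), whereas in LZ the log2 fold change was 0.54 (SE 0.58, adjusted p = 0.465). Of the 100-base windows of its transcript, 58.2% are shared with *Jak3*, which overlaps it on the same strand and had 0 to 25 reads per library, so reads of *Insl3* may be undercounted in every library.

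*Lhcgr* (chromosome 17, 88716481 to 88791990, minus strand), the receptor for luteinizing hormone, had 0 reads in all WT SPG libraries and 37, 7 and 24 in SKO SPG. There were 0, 3 and 7 reads in WT PreL against 76, 116 and 6 in SKO PreL, and 9 and 12 in WT LZ against 7, 29 and 20 in SKO LZ. SKO PreL replicate 3, with 6 reads, fell within the WT range. In SPG the mean of the SKO libraries was at least 8.28-fold higher than 3 reads per library, and the lowest SKO library at least 2.94-fold. *Lhcgr* did not pass the test in SPG (log2 fold change 1.73, SE 0.59, adjusted p = 0.0772) or PreL (2.41, SE 0.80, adjusted p = 0.0659) and rose in LZ (1.76, SE 0.54, adjusted p = 0.0278). It was called in SPG by edgeR (adjusted p = 0.0374) and DESeq2 (0.0028), and in PreL by DESeq2 (0.0031) but not by edgeR.

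**Figure D2:**
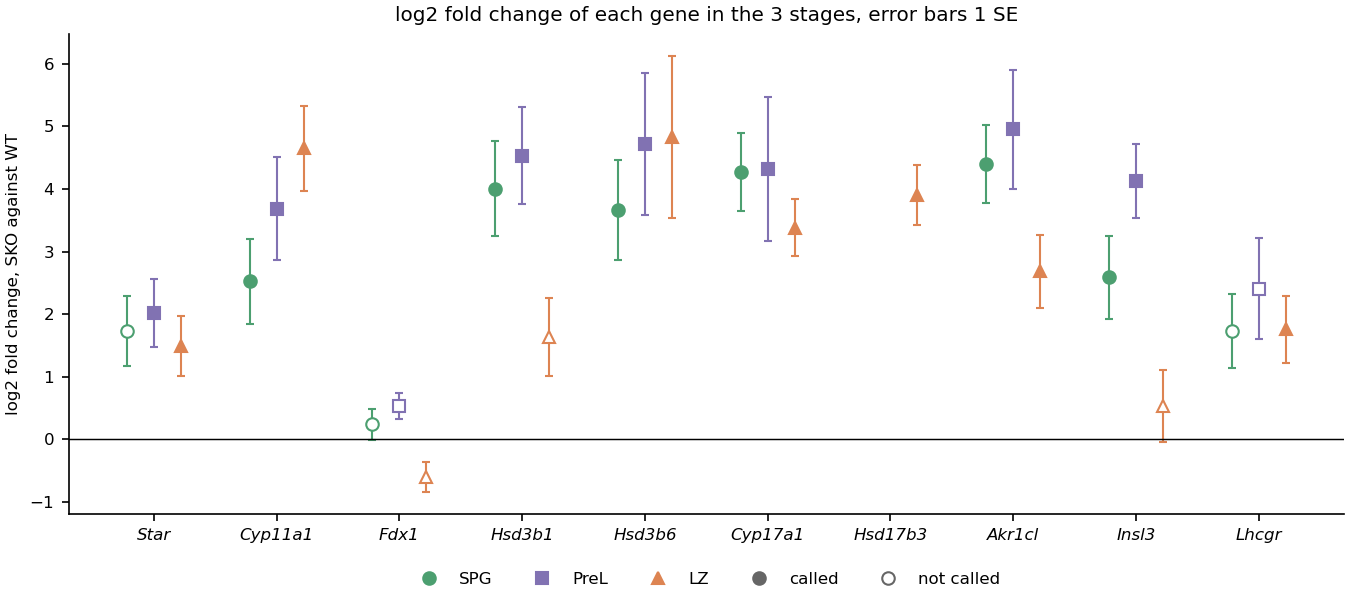
log2 fold change of SKO against WT for each gene in SPG (circles), PreL (squares) and LZ (triangles), with error bars of 1 SE and filled symbols for genes that passed the test. *Cyp17a1*, *Akr1cl*, *Cyp11a1* and *Hsd3b6* are filled in all 3 stages, *Insl3* falls to 0.54 in LZ, *Fdx1* has no filled symbol, and *Hsd17b3* was tested in LZ only.

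Counted over the 10 genes, 6 rose in SPG, where 3.95% of the 12846 genes tested rose, 7 rose in PreL, where 5.32% of 13132 rose, and 7 rose in LZ, where 13.4% of 13724 rose. A gene was said to rise or fall when its adjusted p was under 0.05 and its log2 fold change over 1 in size. By limma 0 of the 10 genes fell in any stage, by edgeR 0 and by DESeq2 0, where 2.06% of all genes fell in SPG, 5.83% in PreL and 25.8% in LZ, while 1 gene, *Fdx1* in LZ, had a lower value at an unadjusted p under 0.05 (0.0367). *Akr1cl*, *Cyp11a1*, *Cyp17a1* and *Hsd3b6* rose in all 3 stages. The filter on low reads kept 9 genes in SPG, 9 in PreL and 10 in LZ, of which 2, 3 and 1 had a WT mean under 10 reads and so passed through their SKO libraries. Over the genes kept, the median log2 fold change was 2.59 in SPG, 4.12 in PreL and 2.22 in LZ, beside 0.00, 0.04 and -0.13 over all genes tested. Without overlap between genotypes on rescaled values, SKO libraries were higher for 8 of the 9 genes tested in SPG (15.8% of all genes tested), 8 of 9 in PreL (17.1%) and 7 of 10 in LZ (30.7%), and for the untested *Hsd17b3* in SPG and PreL. *Fdx1* in LZ was lower without overlap, as were 39.6% of all genes. Reads as listed are not corrected for depth, so groups that overlap in reads, such as *Akr1cl* in LZ, need not overlap on rescaled values.

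In SPG, *Akr1cl* and *Cyp17a1* passed the test under every alternative tried. Leaving out any 1 of WT replicates 1 and 2 and SKO replicates 1 and 3 ended the call of *Cyp11a1* (adjusted p 0.0847 to 0.106). *Insl3* was lost likewise for WT replicates 2 and 3 and SKO replicates 1 and 3 (0.0657 to 0.105), and *Hsd3b6* without WT replicate 3 (0.0565), and edgeR called 3 of the 10 genes. Neither edgeR nor DESeq2 called *Hsd3b1* (adjusted p = 0.0796 and 0.397) or *Hsd3b6* in SPG, and DESeq2 did not call *Cyp11a1* or *Cyp17a1* in PreL or *Hsd3b6* in LZ. In PreL, *Akr1cl*, *Hsd3b1* and *Insl3* passed under every alternative. The count fell to 4 without WT replicate 1 or WT replicate 4 and to 3 without SKO replicate 1 or SKO replicate 2, and was 8 without SKO replicate 3, where *Lhcgr* was added (adjusted p = 0.0039). *Star* was lost there on leaving out any 1 library other than SKO replicate 3 (0.0596 to 0.126) and *Cyp11a1* on leaving out WT replicate 2 or either of SKO replicates 1 and 2 (0.0548 to 0.0575). *Cyp17a1* (0.0737 to 0.0981) and *Hsd3b6* (0.0689 to 0.0809) each lost the call when any of 4 libraries was left out, namely WT replicates 1 and 4 and SKO replicates 1 and 2. In LZ, *Cyp11a1* and *Cyp17a1* passed under every alternative and *Hsd17b3* under every one that kept it. Without WT LZ replicate 3, the count was 3, with *Akr1cl* (adjusted p = 0.139) and *Hsd3b6* (0.0589) lost. *Star* (0.0981 to 0.264) and *Lhcgr* (0.0869 to 0.154) were lost on leaving out any 1 of the WT LZ libraries and SKO replicates 2 and 3, and *Hsd3b1* was gained without SKO replicate 1 (adjusted p = 0.0077), by edgeR (0.0362) and by DESeq2 (0.0058). *Star* in SPG was also gained in 1 fit of all libraries (0.0498) and without SKO replicate 3 (0.0379), and *Lhcgr* in 1 fit of all libraries in SPG (0.0331) and PreL (0.0164) and in PreL on the ERCC-calibrated values (0.01295). These settings also lost calls: in LZ, 1 fit of all libraries lost *Star* (0.0778) and *Lhcgr* (0.102), and the ERCC-calibrated values lost *Star* (0.0550).

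The size of the genotype effect was compared between stages with an interaction term over all 17 libraries. Between SPG and PreL, limma called 0 of the 10 genes at an adjusted p under 0.05 (0.362% of 13530 genes were called), with 0 at an unadjusted p under 0.05 and 0 called by edgeR or DESeq2. The differences of log2 fold change ranged from -0.26 to 1.196. Between PreL and LZ, 2 of the 10 genes differed, both with a lower value in LZ, in a comparison where 23.1% of genes were lower and 38.2% differed in either direction. *Insl3* was lower by a difference of -3.71 (SE 1.07, adjusted p = 0.0103) and *Fdx1* by -1.11 (SE 0.35, adjusted p = 0.0160), beside a median of -0.31 over all genes. *Insl3* kept this call under every alternative, and *Fdx1* lost it without WT LZ replicate 3 (-0.85, adjusted p = 0.106). Without SKO PreL replicate 3, 4 of the 10 genes differed, where 1935 of 13570 genes were called higher and 3070 lower.

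Relative to the other genes, *Insl3* and *Hsd17b3* took different parts in the SKO libraries of LZ and of the other stages. These ratios were chosen after their values were seen and are given with no test. There were 0.577 to 1.21 *Insl3* reads per *Cyp11a1* read in SKO SPG, 0.351 to 0.924 in SKO PreL and 0.149 to 0.182 in SKO LZ, so the 3 SKO LZ libraries lay below the 6 other SKO libraries. In WT LZ the ratio was 1.92 and 6.60. *Hsd17b3* made up 0.22% to 0.66% of the reads of the 9 genes in SKO SPG, 0.21% to 0.62% in SKO PreL and 1.15% to 2.25% in SKO LZ. *Akr1cl* made up 34.8% to 45.2% of these reads in SKO SPG, 28.6% to 35.1% in SKO PreL and 33.1% to 33.8% in SKO LZ.

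**Figure D3:**
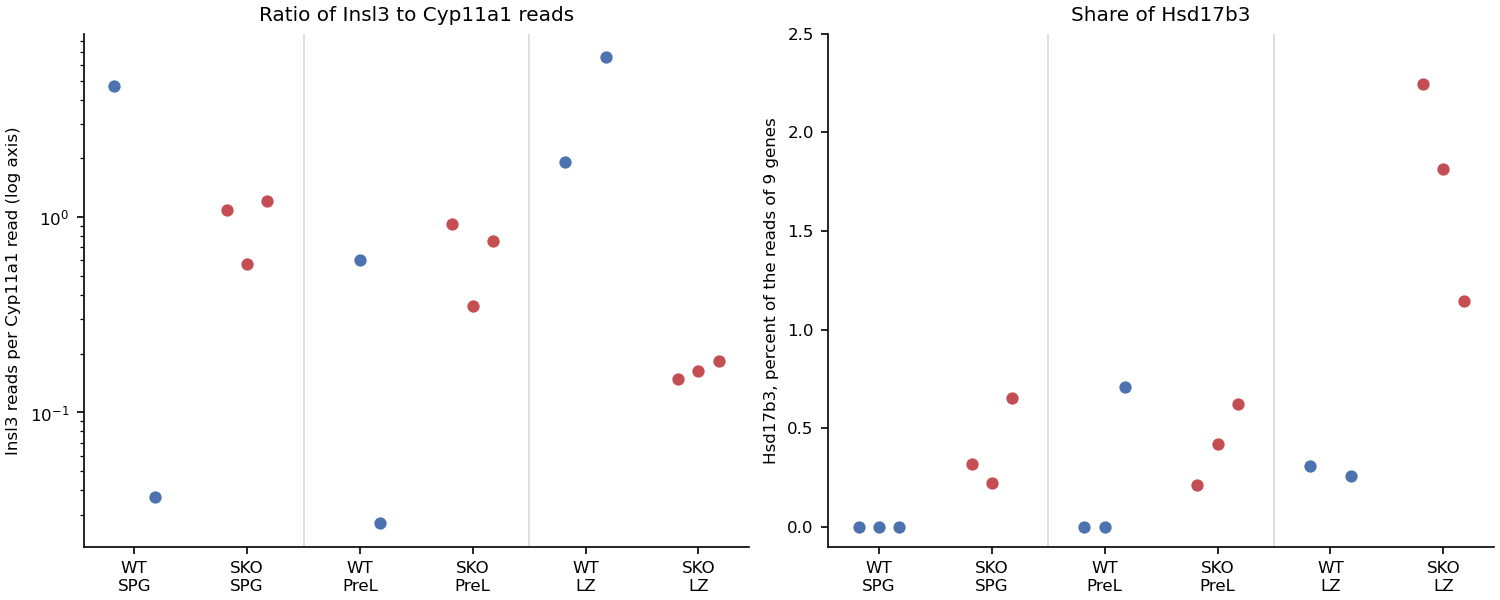
Left, *Insl3* reads per *Cyp11a1* read (log axis) in each library that had reads of *Cyp11a1*; right, reads of *Hsd17b3* as a percentage of the reads of the 9 genes other than *Fdx1*. The SKO LZ libraries have the lowest ratios among SKO libraries (0.149 to 0.182) and the highest *Hsd17b3* shares (1.15% to 2.25%), while WT ratios rest on few reads.

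Between genes, levels were compared as RPM per kilobase of exon (RPKM). In SKO PreL the highest means were 31.3 ± 25.7 RPKM (SD, n = 3) for *Akr1cl*, 30.5 ± 29.4 for *Cyp17a1* and 28.2 ± 23.9 for *Hsd3b6*, which did not differ beyond their spread. *Insl3*, the shortest of the 10 genes, had 24.7 ± 14.2 RPKM there and 7.63 ± 4.51 RPKM in SKO LZ. *Lhcgr* had the lowest mean of the 10 genes in every SKO group, between 0.268 and 0.767 RPKM. *Fdx1* had the highest mean of the 10 genes in each WT group, from 8.63 ± 1.67 RPKM in SPG to 35.6 ± 3.05 RPKM in LZ (n = 2).

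The order of the 6 groups was set by rescaled values, the deposited values divided by size factors over all libraries. By their means, SKO PreL was the highest group for *Hsd3b1*, *Hsd3b6*, *Akr1cl*, *Insl3* and *Lhcgr*, SKO LZ for *Star*, *Cyp11a1*, *Cyp17a1* and *Hsd17b3*, and WT LZ for *Fdx1*. SKO groups that were neighbours in these orders overlapped in their libraries for most genes. *Hsd17b3* in SKO LZ, at 125 ± 41.9 against 28.5 ± 26.6 in SKO PreL, was clear of its neighbour on this scale, though not in RPM. On the ERCC-calibrated values 1 of the 10 genes, and in RPM 8 of 10, were highest in SKO PreL, so this order depends on the scale. *Akr1cl* had means of 92.7 ± 79.7 in WT SPG, 71.0 ± 79.4 in WT PreL and 442 ± 356 in WT LZ, beside 1767 ± 772, 2705 ± 2157 and 2614 ± 1163 in the SKO groups of the same stages.

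Other genes of the pathway, from lists written with earlier results of these data known, are given by counts and the named members, to be read against the shares of all genes tested that rose (3.95% in SPG, 5.32% in PreL and 13.4% in LZ) or fell (2.06%, 5.83% and 25.8%). Among 24 other steroidogenic enzymes and electron donors, 2 rose and 1 fell of 13 tested in SPG, 3 rose of 12 in PreL and 3 rose of 11 in LZ, with medians of -0.12, 0.46 and -0.06. *Sult1e1*, the oestrogen sulfotransferase that Leydig cells express, rose in all 3 stages (log2 fold change 2.47, 3.42 and 4.78), from 0 to 13 reads in WT libraries to 12 to 213 in SKO libraries. With a WT mean under 10 reads in each stage, *Sult1e1* passed the filter on low reads through its SKO libraries. Other genes of these lists with few WT reads could pass in the same way. *Cyb5*, the table's name for *Cyb5a*, whose product aids the lyase reaction of CYP17A1, rose in SPG (1.26) and PreL (2.31). *Hsd3b7*, a dehydrogenase of bile acid synthesis, rose in PreL (1.95) and LZ (1.60). *Hsd17b7*, which also acts in cholesterol synthesis, fell in SPG (-1.1998) and rose in LZ (1.18).

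Of 16 genes that bring cholesterol to mitochondria, all tested in each stage, 2 fell in SPG, where 2.06% of all genes fell, and 3 rose in PreL, where 5.32% rose. In LZ 3 rose and 1 fell, where 13.4% of all genes rose and 25.8% fell, with medians of 0.00, 0.01 and 0.63 in the 3 stages. *Dbi*, an acyl-CoA-binding protein that also binds TSPO, fell in SPG (-1.45). *Lipa*, the lysosomal lipase (2.40), and *Tspo*, the outer mitochondrial membrane protein (2.15), rose in PreL. The cholesterol exporter *Abca1* rose in PreL (1.14) and LZ (2.27), and *Lipe*, the hormone-sensitive lipase, fell in LZ (-2.41). *Stard5* (1.02), named after its value was seen, also rose in LZ.

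Signalling and transcription factor genes of Leydig cells rose in 3 of 11 cases in SPG, 3 of 16 in PreL and 4 of 16 in LZ, where 1 fell, beside 3.95%, 5.32% and 13.4% of all genes that rose and 25.8% that fell in LZ, with medians of 0.48, 1.22 and 0.47. *Nr4a1*, an orphan receptor induced by luteinizing hormone, rose in SPG (2.78) and LZ (1.93), and the prolactin receptor *Prlr* in SPG (2.67) and LZ (4.41). *Gnas*, the stimulatory G protein that couples LHCGR to cyclic AMP, rose in SPG (1.40) and PreL (1.74). *Nr0b1* (3.04) and *Gata4* (2.32), factors that Sertoli cells also express, rose in PreL, and *Cebpb* rose in LZ (3.49). Named after their values were seen, *Nr2f2* rose (1.23) and *Prkaca*, a catalytic subunit of protein kinase A, fell (-1.001) in LZ. A list of 9 other genes of Leydig cells includes *Prlr*, *Nr2f2*, *Nr5a1*, *Scarb1* and *Hsd11b1* again, which are also in the lists above. Of those tested, 5 of 9 rose in SPG, 3 of 9 in PreL and 6 of 8 in LZ, with medians of 2.40, 1.76 and 1.92. The adhesion molecule *Vcam1* (4.07, 3.82 and 3.55), *Pdgfra* (2.40, 2.30 and 2.18) and *Ptgds* (2.96, 1.75 and 1.66) rose in SPG, PreL and LZ. *Igf1* rose in SPG (3.38) and LZ (2.76). *Hsd11b1*, *Nr5a1* and *Scarb1*, named after their values were seen, were called in no stage, and *Hsd11b1* was not tested in LZ. The lowest log2 fold changes of this list were -0.46, -0.57 and -0.79 in the 3 stages. *Nr5a1* had 9, 0 and 0 reads in WT SPG and 48, 25 and 4 in SKO SPG. Its reads were 5, 6 and 2 against 105, 73 and 5 in PreL, and 227 and 42 against 10, 37 and 25 in LZ. Of the 37 calls in these 4 lists that the naming rule took, which leave out *Stard5*, *Nr2f2* and *Prkaca* in LZ, 23 were lost on leaving out at least 1 library (adjusted p up to 0.166).

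Among markers of other somatic cells, some stromal and macrophage genes rose in each stage, while sums of WT and SKO libraries overlapped for stromal genes in PreL, macrophage genes in PreL and LZ, and Sertoli cell genes in PreL and LZ. Of all genes tested, 3.95% rose in SPG, 5.32% in PreL and 13.4% in LZ. Of 5 stromal genes, 5 of 5 tested rose in SPG, 3 of 4 in PreL and 3 of 4 in LZ. Their sum went from 2.24 to 48.7 RPM in WT SPG to 281 to 536 RPM in SKO SPG. In PreL that sum was 6.52 to 31.6 RPM in WT and 28.6 to 159 RPM in SKO, and in LZ 7.31 to 12.3 RPM in WT and 32.0 to 87.5 RPM in SKO. Of 10 macrophage genes, 8 of 10 tested rose in SPG, 2 of 10 in PreL and 5 of 7 in LZ. Their sum in SPG was 10.5 to 16.4 RPM in WT and 148 to 227 RPM in SKO. It was 18.9 to 48.5 and 36.4 to 141 RPM in PreL, and 11.9 to 19.7 and 18.9 to 57.2 RPM in LZ. Marker genes with few WT reads could pass the filter on low reads through their SKO libraries. Of the macrophage genes that rose in LZ, *C1qc*, *C1qb*, *Lyz2* and *Csf1r* had 0 to 9 reads per WT library. Of 10 Sertoli cell genes, 1 of 6 tested rose in SPG, 4 of 10 in PreL and 1 of 10 in LZ. Their sum in SPG was 238 to 278 RPM in WT and 299.6 to 346 RPM in SKO. It was 261 to 287 and 279 to 1513 RPM in PreL, and 459.9 to 1817 and 829.95 to 1120.5 RPM in LZ. Most reads of this sum were of *Ctsl* and *Clu* in every library. In SPG, *Ctsl* had 2496 to 2917 reads in WT and 2479 to 2921 in SKO, whereas *Sox9* and *Wt1* had 0 to 52 in either genotype. SKO PreL replicate 3, the SKO PreL library lowest in the 9 genes, was also lowest of its group in these sums, at 28.6, 36.4 and 279 RPM.

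Of all genes tested, 3.95% rose in SPG, and 2.06%, 5.83% and 25.8% fell in SPG, PreL and LZ. Peritubular myoid genes (7) summed to 14.6 to 23.1 RPM in WT SPG and 62.8 to 83.3 RPM in SKO SPG. Their sums were 26.0 to 37.7 and 25.8 to 61.6 RPM in PreL, and 42.6 to 65.8 and 49.0 to 57.0 RPM in LZ. Of those tested, 2 of 5 rose in SPG and 1 of 4 fell in each of PreL and LZ. The 2 that rose, *Acta2* and *Myh11*, had 0 to 3 reads per WT SPG library. Most reads of the myoid sums in PreL and LZ were of *Mylk*. Endothelial genes (7) summed to 12.1 to 22.9 RPM in WT SPG and 19.6 to 28.3 RPM in SKO SPG, to 14.3 to 15.6 and 21.02 to 23.4 RPM in PreL, and to at most 19.3 and 13.8 RPM in LZ, and none of the 2 to 3 tested in a stage passed by limma. *Egfl7* had the most reads of the endothelial genes in every library. Among the markers, *Dhh*, *Lum*, *Emr1* and *Esam* had no read in WT SPG, *Pecam1*, *Emcn* and *Esam* none in WT PreL, and *Fshr* none in SKO SPG. The 4 spermatid genes *Prm1*, *Prm2*, *Tnp1* and *Tnp2* moved the other way and fell in each stage, from 85.6 to 900.0 RPM in WT libraries to 0.101 to 4.53 RPM in SKO libraries. The part of each of these cell types in the levels of the 10 genes was not tested.

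**Figure D4:**
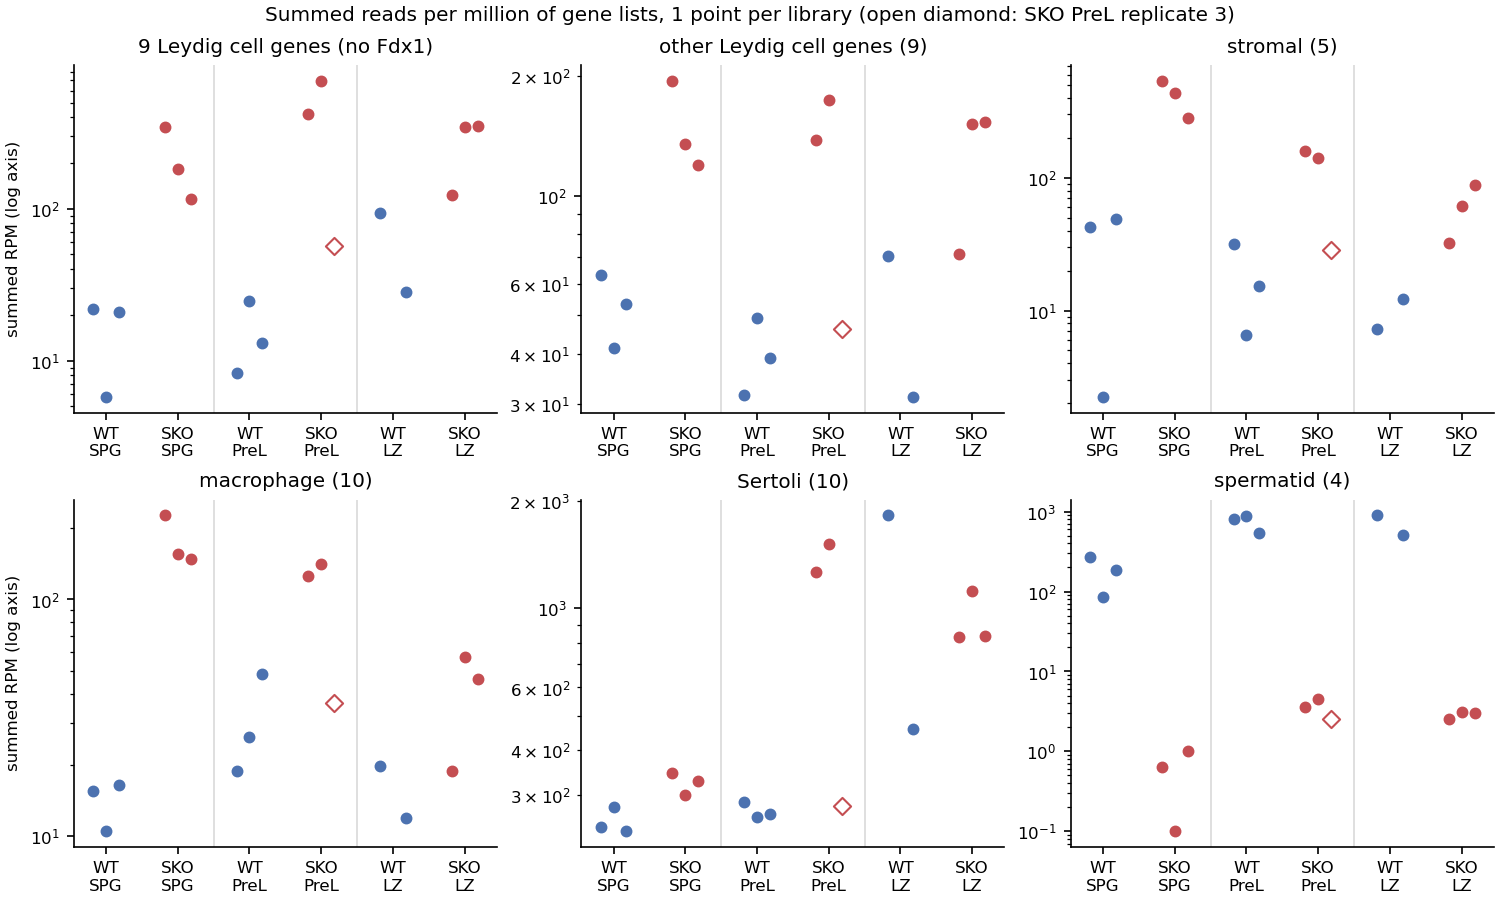
Summed RPM (log axis) of the 9 genes and of 5 marker lists, with 1 point per library and SKO PreL replicate 3 as an open diamond. The 9 genes separate WT (5.78 to 93.3 RPM) from SKO libraries within each stage, stromal and macrophage sums are higher in SKO SPG than in WT SPG, and spermatid sums are lower in SKO throughout.

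Genes outside all lists were ranked by their Pearson correlation, over the 17 libraries, with the mean standardised profile of the 10 genes, among 8592 candidates whose mean over the libraries was 100 reads or more. The 8 highest were *Mgst1* (r = 0.957), *Fabp3* (0.955), *Aldh1a1* (0.954), *Gstm1* (0.954), *Ifi27l1* (0.945), *Gstm2* (0.937), *Tmsb4x* (0.934) and *Ddx3x* (0.932). These points share genotype and library, and the 9 SKO libraries alone gave r from 0.868 to 0.975 for the same 8 genes. *Gstm1*, *Gstm2* and *Mgst1* encode glutathione transferases, and *Aldh1a1* a retinaldehyde dehydrogenase. *Mgst1* ranged from 32 to 2025 reads per library and *Fabp3*, a fatty acid-binding protein, from 15 to 1635. Of the 10 genes themselves, which are part of the profile, 9 correlated with it at 0.871 to 0.953 and *Fdx1* at 0.551.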

How the data were processed

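RNA of sorted cells with ERCC spike-in was made into Smart-seq2 libraries. According to the study's methods, the authors trimmed reads, aligned them to mm10, kept uniquely mapped ones and counted them per gene with HTSeq (0.11.2), and the submitters' processing notes also list TopHat2 (2.1.1), Cufflinks (2.2.1) and mm9, whose roles are not given in the sources used here. The deposited values are a signal, namely these read counts multiplied by 1 factor per library for spike-in and cell input, and dividing by that factor gave whole reads for 100% of values (within 0.001 read). The authors tested genotypes with DESeq2.

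Rescaled values are the deposited ones over size factors (median of ratios), which removes a global difference in RNA amount. Genes that averaged 10 or more reads were tested on log2(value + 10) with limma (3.58.1, mean-variance trend, R 4.3.3) and Benjamini-Hochberg adjustment over all genes tested. SKO and WT were compared within each stage, and effects of adjacent stages by an interaction term over all 17 libraries, called at an adjusted p under 0.05. Interaction and stage fits were tested on simulated data. Changes were simulated only in genes with more reads than *Hsd17b3* or *Lhcgr* averaged, and with the same spread setting for all genes. That test therefore says little about genes with few or uneven reads. No replicates looked like 1 library deposited again (chi-square of 5.88 to 62.4 per degree of freedom). Alternatives were edgeR (4.0.16) and DESeq2 (1.42.0) on recovered reads, other scalings, pseudocounts (1, 50) and filters, no fold threshold, a replicate block, 1 fit of all libraries and leaving out each library. Exon lengths and positions came from GENCODE M21 (GRCm38).

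The 10 genes and all lists were chosen with earlier results of these data known. All 10 genes are named. Of the pathway and Leydig cell lists, up to 3 called genes with the largest change per list and stage and those called in all stages are named, and of genes outside the lists the 8 with the most similar profile; 1 gene that this rule would name is not reported here. Precision is limited by 2 or 3 libraries per group.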

Additional observations from a re-analysis of the deposited data

Results flagged for a closer look

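The effect of genotype on *Insl3* differed between LZ and PreL by a log2 difference of -3.71 (SE 1.07, adjusted p = 0.0103, limma), and that on *Fdx1* by -1.11 (SE 0.35, adjusted p = 0.0160, limma). Both passed a test of the difference itself, beside a median of -0.31 over all genes tested. In that test 23.1% of 13530 genes were lower and 38.2% differed in either direction. On the ERCC-calibrated values, *Insl3* differed by -4.13 and *Fdx1* by -1.98, where the median of all genes was -1.12. Their causes were not tested.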

How the results depend on the processing

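The main fits called 6 of the 10 genes in SPG, 7 in PreL and 7 in LZ. The count in SPG was 2 with no filter on low reads and 3 by edgeR. Of all genes, 325 of 19848 with no filter and 405 of 12846 by edgeR rose in SPG. Leaving out 1 library gave 4 to 6 calls in SPG, 3 to 8 in PreL and 3 to 8 in LZ, and 0 to 0 (PreL against SPG) and 1 to 4 (LZ against PreL) for the interactions. On the ERCC-calibrated values 1 gene was called for PreL against SPG and 4 for LZ against PreL, beside 0 and 2. Of all 13530 genes on those values, 5938 were called higher and 147 lower for PreL against SPG. For LZ against PreL, 749 were called higher and 6575 lower. With the replicate number as a replicate block, 7, 8 and 8 genes were called in SPG, PreL and LZ and 0 and 4 for the interactions. The block called 514 of 12846 genes higher in SPG, 1256 of 13132 in PreL and 1845 of 13724 in LZ. It called 294, 888 and 3520 lower. For LZ against PreL the block called 1607 of 13530 genes higher and 2558 lower, and for PreL against SPG 39 and 16. Deviations of same-numbered libraries correlated at -0.053 to 0.1099 and those of different-numbered libraries at -0.099 to 0.058. Same-numbered values of 0.074, 0.086, 0.099 and 0.1099 lay above every different-numbered one, and -0.00088 and -0.053 did not. Deviations were taken from group means, so these values depend on each other. With 2 WT LZ libraries, the LZ values of each SKO library were equal in size and opposite in sign, so this contrast cannot decide whether libraries were paired. The main fits took no pairs because the study's methods name none. SKO PreL was the highest group for 5 genes on rescaled values, 1 on ERCC-calibrated values and 8 in RPM. *Fdx1* in SPG turned from 0.24 to -0.028 on the ERCC-calibrated values, where the median of all genes was -0.25 in SPG, 0.73 in PreL and -0.25 in LZ. The causes of these shifts were not tested. Where 1 WT LZ library was left out, the other was assumed to vary like the remaining groups. *Hsd17b3*, with 0 to 48 reads per library, is limited by depth.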
